A study of Mus musculus with 6 samples.

Results

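The nuclear genes of the mitochondrial respiratory chain and ATP synthase were followed in livers of mice labelled as Mul1(+/+) and Mul1(−/−), Mul1 being a ubiquitin ligase gene. Members were every gene of the deposited table whose symbol starts with Nduf, Sdh, Uqcr, Cox plus a digit or Atp5, or is Cyc1 or Cycs, with names ending in -ps left out. This rule found 51 of 3542 genes, and it used names, not measured values. RNA came from whole liver tissue of 3 wild-type Mul1(+/+) and 3 whole-body Mul1-deficient Mul1(−/−) mice, the latter bred from heterozygous parents, and all 6 mice had eaten a high-fat diet (HFD) during 16 weeks. Both sexes were used in the study, which gives a single age for its mice at the start of the diet. Glucose and insulin tests came before the tissue was taken. The age, sex and litter of each library's mouse are not given in the labels. The study describes the Mul1(−/−) mice as deficient in the whole body, so liver cannot be told apart from the rest of the animal as the place where a lack of MUL1 would act. The Mul1 transcript was still present in the libraries labelled Mul1(−/−), at 38.2% of the Mul1(+/+) mean, and did not pass the threshold used below. Livers from a normal diet were not analysed here. The values are normalised read counts, and the table holds only genes that differed in the authors' own test of the same 6 libraries. No gene in it had an authors' adjusted p above 0.05 or an authors' absolute log2 fold change under 1. Counts of differing members are therefore not independent evidence that they differ, and medians and ranges of fold changes lack the smaller changes.

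The respiratory chain sits in the inner mitochondrial membrane. Complex I takes electrons from NADH and Complex II takes them from succinate. Coenzyme Q carries them to Complex III and cytochrome c to Complex IV, which passes them to oxygen, and the proton gradient built on the way drives ATP synthase, also called Complex V. Most subunits are encoded in the nucleus and imported, a small catalytic set is encoded by the mitochondrial genome, and assembly factors build the complexes without staying in them. In hepatocytes this machinery burns the electrons released by fatty acid oxidation and the citric acid cycle. MUL1 itself sits in the outer mitochondrial membrane.

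Expression of 49 of the 51 members was higher and that of 2, Sdha and Cox15, was lower in Mul1(−/−) than in Mul1(+/+) HFD-liver. Of all genes in the table, 56.8% were higher and 43.2% were lower. Before the values, some promoter sequence is shown, because nuclear respiratory genes are known to share binding motifs of the factors NRF1 and of the ETS family, to which GABPA belongs. RefSeq promoters on GRCm38.p6 matched 44 members, and the other 7, Cox17, Cox6c, Uqcrq, Ndufa2, Ndufaf6, Cox4i1 and Uqcrb, had no entry. The 250 bases before each start were searched on both strands for 5 sets of letters. The NRF1 core GCATGCGC was found for 6 members (13.6%), against 2.56% of 27025 genes. The ETS motif CCGGAAG was found for 11 members (25.0%), against 7.83% of all genes. The YY1 motif AAGATGGC matched 1 member (2.27%; all genes 1.83%), the ERR motif AAGGTCA matched 3 (6.82%; all genes 4.7%), and the CRE letters TGACGTCA matched 3 (6.82%; all genes 1.77%). In all, 16 members held an NRF1 core or an ETS motif, and Atp5l held both. A match describes letters only and is not a binding site. The 27025 genes are all those with a RefSeq promoter. Shares among the other genes of the table were not computed, so a difference from those is not shown.

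The windows below lie before the starts of 3 genes that passed the threshold and hold an ETS match (Atp5e, Uqcrh, Uqcr11), of 2 with an NRF1 match (Ndufa6, Ndufaf4) and of Sdha, the lower subunit, in which none of the 5 was found. They are written 5′ to 3′ on the gene's strand, leave out annotated exons, and have the ETS or NRF1 letters in capitals, on either strand. They lie at chr2:174464106-174464255, chr4:116075072-116075221, chr10:80406831-80406980, chr15:82354323-82354472, chr4:24897933-24898082 and chr13:74350409-74350490 of GRCm38.p6, on the minus strand except for Ndufaf4 on the plus strand. The Sdha window is 82 bases long and ends 168 bases before the RefSeq start, because exon sequence was left out, and the others are 150 bases long and end 0 to 31 bases before it.
Atp5e: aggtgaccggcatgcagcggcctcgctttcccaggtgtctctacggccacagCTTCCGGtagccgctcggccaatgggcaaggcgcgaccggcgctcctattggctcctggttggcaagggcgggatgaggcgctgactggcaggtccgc
Uqcrh: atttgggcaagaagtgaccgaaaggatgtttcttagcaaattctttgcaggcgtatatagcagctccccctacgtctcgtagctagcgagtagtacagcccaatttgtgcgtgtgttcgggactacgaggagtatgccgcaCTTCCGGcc
Uqcr11: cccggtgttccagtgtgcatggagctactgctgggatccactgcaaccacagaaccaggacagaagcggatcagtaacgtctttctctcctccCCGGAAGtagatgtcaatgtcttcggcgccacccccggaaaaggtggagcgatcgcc
Ndufa6: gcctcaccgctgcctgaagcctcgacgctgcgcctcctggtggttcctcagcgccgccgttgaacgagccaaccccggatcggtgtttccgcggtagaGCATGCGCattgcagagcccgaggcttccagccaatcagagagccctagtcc
Ndufaf4: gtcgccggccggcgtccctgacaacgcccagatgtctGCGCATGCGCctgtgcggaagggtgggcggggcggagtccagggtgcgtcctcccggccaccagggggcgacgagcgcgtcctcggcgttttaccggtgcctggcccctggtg
Sdha: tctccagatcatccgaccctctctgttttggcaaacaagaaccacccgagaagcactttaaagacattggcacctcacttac

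In Ndufaf4 the NRF1 core reads on both strands and its copies overlap. In Atp5e and Uqcrh the ETS letters are on the opposite strand. The 250 bases before Cox15, the other lower member, held none of the 5 motifs.

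Values below are normalised counts, and fold changes are differences of log2(normalised count + 1) between the group means, Mul1(−/−) minus Mul1(+/+), tested with limma over all 3542 genes. A gene passed the threshold if its adjusted p was below 0.01 and its fold change exceeded 1 in log2, either way. With this threshold 11 members (21.6%) were higher, against 16.7% of the whole table, and 0 were lower, against 7.43%. They were Ndufb4 of Complex I, Uqcrq, Uqcrh and Uqcr11 of Complex III, Cox7b, Cox6c, Cox7c and Cox7a1 of Complex IV, Atp5e and Atp5j2 of Complex V, and the assembly factor Cox17. At an adjusted p-value under 0.05, 48 members were higher and 2 lower, where 53.0% of the table were higher and 42.4% lower. The 3 Mul1(−/−) values lay entirely above the 3 Mul1(+/+) values in 49 members and entirely below them in 2, against 49.3% and 41.0% of the table, or 90.3% in either direction. All 51 had an unadjusted p under 0.05 in limma, as did 96.4% of the table, and 24.1% of the table passed the threshold in either direction. The exact two-sided permutation test gave p = 0.1 for each member, the smallest p that 3 against 3 allows. In whole tissue, fewer cells of a type and less RNA per cell cannot be told apart.

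The median log2 fold change of all members was 1.39, and that of all genes in the table was 1.12. The table's median depended on genes with low counts. Among genes with a mean of at least 50, which kept all 51 members, it was −1.02, and the members' median was still 1.39. Among the genes that were higher, the median was 1.40 for the 49 members and 1.67 for the 2012 genes of the table, the larger of the medians. Complex III and Complex IV had the largest medians, 1.65 and 1.63. Complex V followed with 1.45, Complex I with 1.39 and the assembly factors with 1.26, whereas the only Complex II subunit in the table was at −1.48.

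**Figure D1:**
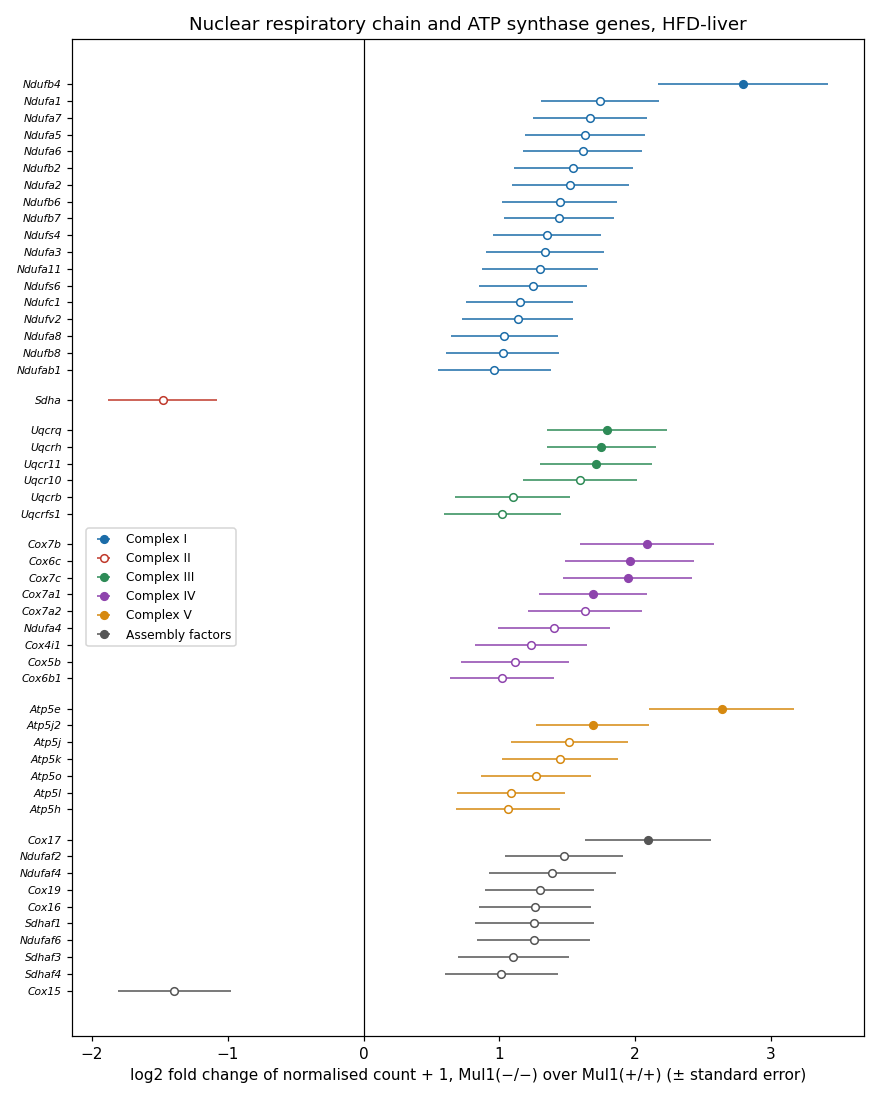
Log2 fold changes of the 51 members (horizontal axis, Mul1(−/−) over Mul1(+/+), bars ± standard error) by complex. Filled points passed an adjusted p-value under 0.01; 49 points lie right of 0, from 0.96 for Ndufab1 to 2.79 for Ndufb4, and Sdha and Cox15 lie left of it. The hollow or filled legend symbol is that of the first gene of the complex.

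Complex I, the NADH dehydrogenase, was represented by 18 genes, and all 18 were higher in Mul1(−/−) HFD-liver. Of the 7 nuclear core subunits listed for it, 1 was in the table, and of the 30 accessory subunits 17 were. Accessory subunits surround and stabilise the core without carrying electrons. Ndufb4 (ENSMUSG00000022820, chromosome 16, 37647170 to 37654453 on GRCm38), an accessory subunit of the membrane arm, had the largest fold change of all members. The normalised counts of Ndufb4 were 1009, 1747 and 1152 in the Mul1(+/+) livers, and 9109, 21865 and 3409 in the Mul1(−/−) livers, both in replicate order, as for every gene below. The lowest Mul1(−/−) value was thus above the highest Mul1(+/+) value, but the Mul1(−/−) values themselves ranged widely, with replicate 2 far above replicate 3. The log2 fold change was 2.79 (standard error, SE, 0.62, limma adjusted p = 0.00803), and Ndufb4 was the only Complex I gene past the threshold. A pseudogene copy identical to its coding sequence (100%) is annotated, so the counting may have divided reads between them.

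Ndufv2, the core subunit, carries an iron-sulphur cluster in the matrix arm. It was at 4098, 5995 and 3642 in Mul1(+/+) and 8545, 13253 and 8345 in Mul1(−/−), a log2 fold change of 1.13 (SE 0.41, limma adjusted p = 0.0252). Despite separate groups, the gene did not pass the threshold. Ndufs4, an accessory subunit near the NADH-oxidising end of the complex, had 2287, 3533 and 2146 in Mul1(+/+) and 5839, 8085 and 6085 in Mul1(−/−), a log2 fold change of 1.35 (limma adjusted p = 0.0146). Ndufs6, a zinc-binding accessory subunit, had 3488, 5057 and 3347 in Mul1(+/+) and 8222, 12054 and 7996 in Mul1(−/−), a log2 fold change of 1.25 (limma adjusted p = 0.0181). In both, Mul1(−/−) replicates 1 and 3 were close to each other and replicate 2 was higher. Ndufab1, the mitochondrial acyl carrier protein, also serves fatty acid synthesis in the matrix. Its values were 2901, 3684 and 2912 in Mul1(+/+) and 5361, 9271 and 4634 in Mul1(−/−), the smallest difference of the complex at 0.96 (SE 0.42, limma adjusted p = 0.0448), and the only one of the 49 below 1. This floor near 1 follows the cut of the table at an authors' absolute log2 fold change of 1.

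The other 13 genes of Complex I had log2 fold changes from 1.03 for Ndufb8 to 1.74 for Ndufa1. Ndufa1 missed the threshold narrowly, with 2264, 3393 and 2369 in Mul1(+/+) and 8228, 13568 and 6082 in Mul1(−/−). Ndufa7 (1.67), Ndufa5 (1.63), Ndufa6 (1.61), Ndufb2 (1.54) and Ndufa2 (1.52) were next, followed by Ndufb6 and Ndufb7 (both 1.44). Ndufa3 (1.34), Ndufa11 (1.30), Ndufc1 (1.15) and Ndufa8 (1.04) were smaller. Per kilobase of coding transcript, the mean normalised counts in Mul1(+/+) ran from 910 for Ndufab1 to 9247 for Ndufa3, and in Mul1(−/−) from 1846 for Ndufab1 to 25597 for Ndufa6. The transcript levels of the subunits thus spanned a wide range in both genotypes.

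For Complex II, succinate dehydrogenase, only 1 of 4 subunits was in the table, and that subunit went the other way. Sdha (ENSMUSG00000021577, chromosome 13, 74322254 to 74350280) encodes the flavoprotein of the complex, the catalytic subunit that also works in the citric acid cycle. Its normalised counts were 37694, 25224 and 29828 in Mul1(+/+) and 9053, 9968 and 14438 in Mul1(−/−) replicates 1 to 3. The highest Mul1(−/−) value was below the lowest Mul1(+/+) value, and the mean was 36.1% of that in Mul1(+/+), 11153 ± 2881 against 30915 ± 6305 (SD, n = 3). The log2 fold change of −1.48 (SE 0.40, limma adjusted p = 0.0116) did not pass the threshold, and lay between −1.68 and −1.33 with each library left out. The ratio of Ndufs4 to Sdha within a library was 0.0607, 0.140 and 0.0720 in Mul1(+/+) and 0.645, 0.811 and 0.421 in Mul1(−/−). This ratio does not depend on the scaling of the libraries. Its groups could not overlap, because Ndufs4 was higher and Sdha lower in every Mul1(−/−) library, so their separation adds no further evidence. The 3 assembly factors of the same complex in the table were on the opposite side: Sdhaf1 (1.26), Sdhaf3 (1.10) and Sdhaf4 (1.01), which help insert iron-sulphur clusters or the flavin.

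Complex III, the cytochrome bc1 complex, had 6 genes in the table, all higher, of which 3 passed the threshold. Uqcrh (ENSMUSG00000063882, chromosome 4, 116066965 to 116075071), the acidic hinge protein near cytochrome c1, had 3814, 5988 and 3672 in Mul1(+/+) and 13105, 18228 and 13418 in Mul1(−/−). All 3 Mul1(−/−) libraries were well above the highest Mul1(+/+) library, and the log2 fold change was 1.75 (SE 0.40, limma adjusted p = 0.00833). Uqcr11 (chromosome 10, 80402997 to 80406830), a small membrane subunit, had 5002, 7345 and 3932 in Mul1(+/+) and 16226, 21524 and 14591 in Mul1(−/−), a log2 fold change of 1.71 (limma adjusted p = 0.00916). Uqcrq, the ubiquinone-binding subunit VIII, had the largest fold change of the complex, with 13491, 21038 and 11478 in Mul1(+/+) and 51575, 74546 and 35455 in Mul1(−/−), or 1.80 (limma adjusted p = 0.00971).

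Uqcr10 (1.59) and Uqcrb (1.10) did not pass the threshold, nor did Uqcrfs1, the Rieske iron-sulphur protein and the only electron carrier of the complex among the members. Uqcrfs1 had the smallest fold change of the complex, 1.02 (SE 0.43, limma adjusted p = 0.0409), from 8641, 10323 and 7812 in Mul1(+/+) to 15024, 29146 and 13315 in Mul1(−/−). Its Mul1(−/−) replicate 2 stood well above the other two of its group. Levels per kilobase in Mul1(+/+) ran from 6549 for Uqcrfs1 to 12194 for Uqcr11, a narrower range than in Complex I. The other electron-carrying subunit encoded in the nucleus, Cyc1, and the carrier Cycs were not analysed here.

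Complex IV, cytochrome c oxidase, had 9 nuclear genes in the table, all higher and 4 past the threshold. Its catalytic subunits are encoded by the mitochondrial genome, and the nuclear ones are small proteins around them. Cox7b (ENSMUSG00000031231, chromosome X, 106015700 to 106022450) had 5272, 7094 and 3887 in Mul1(+/+) and 18268, 42400 and 14434 in Mul1(−/−), a log2 fold change of 2.09 (SE 0.49, limma adjusted p = 0.00893). Cox6c had 6879, 9667 and 6162 in Mul1(+/+) and 30404, 48240 and 16491 in Mul1(−/−), a log2 fold change of 1.96 (limma adjusted p = 0.00933). Cox7c had 6480, 9646 and 5740 in Mul1(+/+) and 25120, 47960 and 16995 in Mul1(−/−), a log2 fold change of 1.94 (limma adjusted p = 0.00962). These 3 accessory subunits shared an order, with Mul1(−/−) replicate 2 highest and replicate 3 lowest of its group.

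Cox7a exists as a muscle-type isoform, Cox7a1, and a liver-type isoform, Cox7a2. Cox7a1 (chromosome 7, 30184144 to 30186078) had the lowest values of all members, 67.4, 94.8 and 110 in Mul1(+/+) and 311, 338 and 231 in Mul1(−/−), a log2 fold change of 1.69 (SE 0.40, limma adjusted p = 0.00891). Cox7a2 had 3510, 5432 and 3594 in Mul1(+/+) and 10544, 18252 and 10604 in Mul1(−/−), a log2 fold change of 1.63 (limma adjusted p = 0.0107), just outside the threshold. The ratio of Cox7a2 to Cox7a1 was 47.3 ± 13.0 in Mul1(+/+) and 44.6 ± 10.1 in Mul1(−/−) (SD, n = 3), a difference smaller than either SD. Thus Cox7a1 passed and Cox7a2 did not, while their proportion stayed within its spread. The remaining genes were Ndufa4 (1.40), a subunit first assigned to Complex I, the regulatory subunit Cox4i1 (1.24), the zinc-binding Cox5b (1.12) and Cox6b1 (1.02, limma adjusted p = 0.0285), which joins the monomers on the intermembrane side. Cox6b1 had 6034, 7839 and 5288 in Mul1(+/+) and 11350, 15078 and 12168 in Mul1(−/−). Cox4i1 had the highest level per kilobase in both genotypes, 39223 and 91191, and Cox7a1 the lowest, 187 and 605.

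Complex V, the ATP synthase, had 7 genes in the table, again all higher, with 2 past the threshold. Of the 5 subunits of the F1 head and its central stalk, which make ATP, 1 was in the table, and of 12 subunits of the outer stalk and membrane part 6 were. The F1 gene was Atp5e (ENSMUSG00000016252, chromosome 2, 174461072 to 174464105), which encodes the epsilon subunit at the foot of the central stalk. It had 5059, 8637 and 4833 in Mul1(+/+) and 37695, 72770 and 18574 in Mul1(−/−). Every Mul1(−/−) library exceeded every Mul1(+/+) library, and replicate 2 was again highest. The log2 fold change was 2.64 (SE 0.54, limma adjusted p = 0.00701). Per kilobase, Atp5e was the highest gene of the complex in both genotypes, 14671 in Mul1(+/+) and 102169 in Mul1(−/−).

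Atp5j2, the f subunit of the membrane part, had 4998, 7111 and 4546 in Mul1(+/+) and 16539, 24449 and 13361 in Mul1(−/−), a log2 fold change of 1.69 (SE 0.41, limma adjusted p = 0.00970). Atp5h, the d subunit of the outer stalk, had the smallest fold change, 1.06 (limma adjusted p = 0.0250), with 7890, 9788 and 7518 in Mul1(+/+) and 16223, 21597 and 15062 in Mul1(−/−). Between them lay the coupling factor Atp5j (1.52), Atp5k (1.45) and Atp5l (1.08), which encode the e and g subunits of the membrane part, and Atp5o (1.27), the oligomycin-sensitivity subunit that ties the outer stalk to the head.

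Of the 23 assembly factors whose names fall under the rule, 10 were in the table, 9 higher and 1 lower. Cox17 (ENSMUSG00000046516, chromosome 16, 38346991 to 38352763), the copper chaperone of Complex IV, had 491, 824 and 567 in Mul1(+/+) and 2452, 4349 and 1685 in Mul1(−/−), a log2 fold change of 2.10 (SE 0.46, limma adjusted p = 0.00793). It was the only factor past the threshold, and its value is uncertain because another annotated gene holds its coding sequence at 100% identity. Cox15 (ENSMUSG00000040018, chromosome 19, 43733254 to 43753000) makes heme A for the same complex and was lower, with 1648, 1508 and 1633 in Mul1(+/+) and 580, 416 and 923 in Mul1(−/−). Its groups did not overlap, and its Mul1(+/+) values were close together, 1596 ± 76.8, against 640 ± 259 in Mul1(−/−) (SD, n = 3). The log2 fold change of −1.39 (SE 0.42, limma adjusted p = 0.0151) did not pass the threshold. Thus a copper and a heme factor of Complex IV differed in direction. Exons of Cox15 overlap those of Cutc and Entpd7 on the other strand, and whether the counting used strand is not given in the sources used here.

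The remaining factors were 3 of Complex I, Ndufaf2 (1.48), Ndufaf4 (1.39) and Ndufaf6 (1.25), 3 of Complex II given above, and Cox19 (1.30) and Cox16 (1.26) of Complex IV. Levels per kilobase of the assembly factors were low, from 94.9 for Sdhaf3 to 1413 for Cox17 in Mul1(+/+), with a median of 518, where the medians of Complexes I, III, IV and V ran from 4809 to 10335.

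**Figure D2:**
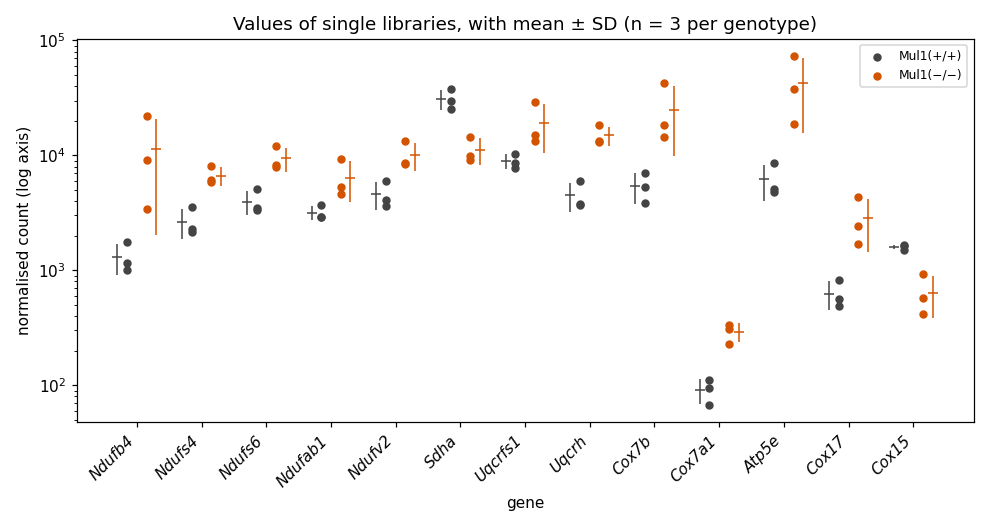
Normalised counts (log axis) of 13 members by library, with the mean ± SD beside them (n = 3 per genotype). The Mul1(−/−) points lie above the Mul1(+/+) points in 11 genes, with the largest mean fold changes in Ndufb4 and Atp5e, and below them in Sdha and Cox15.

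The members ranked the libraries alike. Among the 49 higher members, the highest Mul1(−/−) value was in replicate 2 in all 49, whereas it was in replicate 2 in 52.0% of the 1963 other genes that were higher. The lowest Mul1(−/−) value was in replicate 3 in 33 members and in replicate 1 in 16. Within Mul1(+/+), replicate 2 was highest in 48 of the 49 (98.0%), against 57.1% of the other higher genes. The exception was Cox7a1, with its highest value in replicate 3. Replicate 2 was also highest in both genotypes in each of the 10 higher assembly factors whose names fall outside the rule. The order is thus not particular to the members. The median deviation of all members from their Mul1(+/+) mean, in log2, was −0.13, 0.39 and −0.24 in Mul1(+/+) and 1.19, 1.85 and 1.09 in Mul1(−/−) replicates 1 to 3. By complex, the Mul1(−/−) medians were 1.30, 1.90 and 1.03 in Complex I and 1.45, 2.03 and 1.34 in Complex III. They were 1.37, 1.91 and 1.26 in Complex IV, 1.27, 1.98 and 1.09 in Complex V, and 1.08, 1.72 and 1.05 in the assembly factors. Each of these groups had the same Mul1(−/−) library at the top, and Sdha had its 3 values at −1.75, −1.61 and −1.08.

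**Figure D3:**
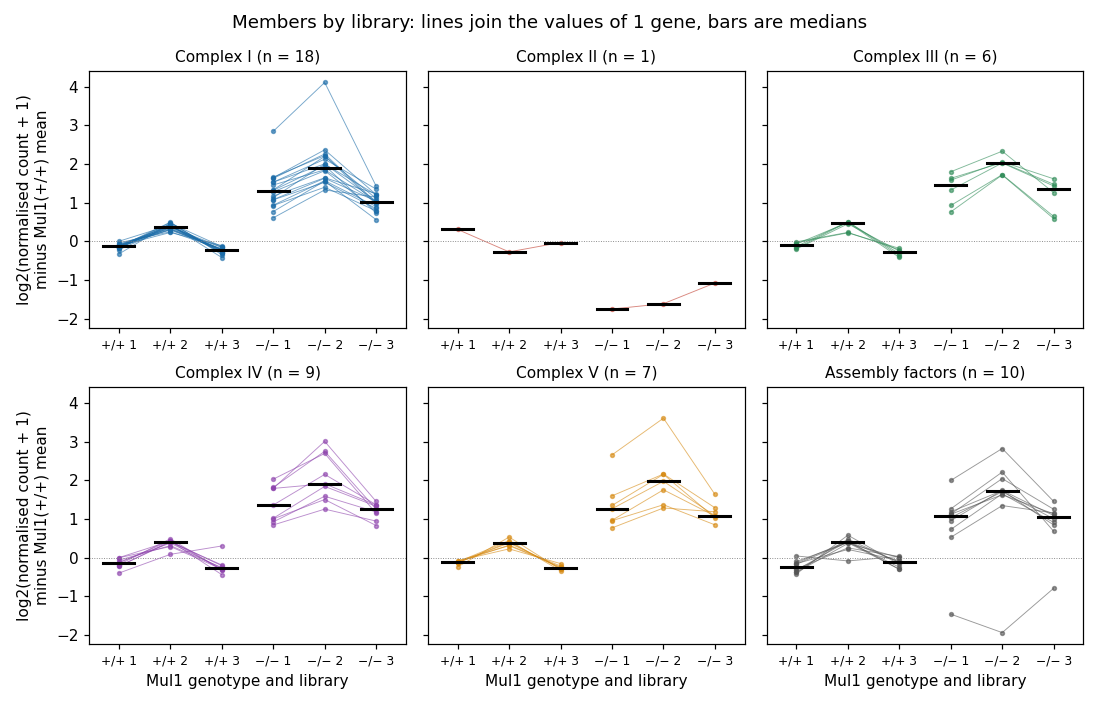
Each member's log2(normalised count + 1) minus its Mul1(+/+) mean (vertical axis) in the 6 libraries (horizontal axis), by complex; lines join 1 gene and bars are medians. Replicate 2 is the top Mul1(−/−) library in Complexes I, III, IV and V, with medians from 1.90 to 2.03, and Sdha and Cox15 run below 0.

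The subunits encoded by the mitochondrial genome did not share this order. Of the 13, 11 were in the table and had higher means in Mul1(−/−), but 0 passed the threshold and the groups overlapped in 9. Their median deviations were 2.49, 1.11 and 0.09 in Mul1(−/−) replicates 1 to 3, and Mul1(−/−) replicate 1 was highest in all 27 mitochondrial genome genes of the table. Both genomes contribute to Complex IV, where the 3 mitochondrial subunits had medians of 2.89, 1.71 and 0.30 and the 9 nuclear ones had 1.37, 1.91 and 1.26. In Mul1(−/−) replicate 3 the nuclear subunits were therefore well above, and the mitochondrial ones near, the Mul1(+/+) level.

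Because mitochondrial genome genes held 49.4% of the table's values in Mul1(−/−) replicate 1, against 10.7% to 13.4% in Mul1(+/+), the members' share of the table differs from their counts. Summed normalised counts of the 51 members were 247200, 325074 and 220826 in Mul1(+/+) and 591015, 960200 and 513720 in Mul1(−/−). As shares of the table's summed values they were 1.91%, 2.94% and 1.92% in Mul1(+/+) and 3.08%, 6.27% and 4.90% in Mul1(−/−). The groups still did not overlap, but Mul1(−/−) replicate 1 and Mul1(+/+) replicate 2 were close. With the libraries rescaled to equal table totals, 27 members had groups that did not overlap (81.8% of the table), and in 24 of the 49 higher members Mul1(−/−) replicate 1 was under the highest Mul1(+/+) value. Leaving mitochondrial genome genes out of the total, all 51 had separate groups (91.4% of the table).

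The calls leaned on scaling and on single libraries. With libraries scaled instead by the median ratio of table genes, which shifted the median log2 fold change of all genes by −0.66, 2 members passed as higher (6.66% of the table), namely Ndufb4 and Atp5e, and 2 passed as lower (29.1% of the table), namely Sdha and Cox15. All 49 higher members kept a positive fold change under this scaling. Its factors came only from genes of the table, all selected as differing between the genotypes. It can therefore remove part of a genotype difference, and it is not a check on unchanged genes. Without Mul1(−/−) replicate 2, or without any 1 of the Mul1(+/+) libraries, 0 members passed by limma, with 42 members at an unadjusted p under 0.05 in the first case and 32, 49 and 31 without Mul1(+/+) replicates 1, 2 and 3. With no library left out, 96.4% of the table had such an unadjusted p. The table's shares in the smaller fits are not given here, so these counts are not results about the members. Without Mul1(−/−) replicate 1, Ndufb4, Atp5e, Cox17 and Cox7b passed, or 7.84% of the members against 17.8% of the table. Without Mul1(−/−) replicate 3, 35 passed as higher and 2 as lower, together 72.5% of the members against 75.5% of the table. Of the table, 0.282% passed without Mul1(−/−) replicate 2 and 0.367% to 1.30% without 1 of the Mul1(+/+) libraries. The direction was the same for every member in each of these fits, with 49 higher and 2 lower. Every gene of the table was selected on these same libraries, which favours kept directions. How often the other genes kept theirs is not given here, so this is not particular to the members.

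The members encode short proteins, a feature that the rule did not use. In GENCODE M21 their median length was 111 residues, from 52 for Atp5e to 664 for Sdha, against a median of 467 for the other 2798 protein-coding genes of the table. All 19 members under 100 residues and all 26 members from 100 to under 200 residues were higher. Among the other genes of the table, 97.2% of 109 under 100 residues and 87.4% of 350 from 100 to under 200 residues were higher as well. From 200 to under 400 residues, 4 of 4 members and 58.4% of 699 other genes were higher. From 400 residues upward, 0 of 2 members, Sdha and Cox15, and 30.5% of 1640 other genes were higher. The direction of the members thus ran with length as it did in the rest of the table.

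Size of change also ran with length among the members. The rank correlation (Spearman) of protein length with fold change was −0.63 over the 51 members and −0.58 over the 49 higher ones, and −0.35 over the other 2798 genes. Over the other 1321 genes that were higher it was −0.06. These correlations are across genes measured in the same 6 libraries, and genes are not independent replicates. Median log2 fold changes of members were 1.69 under 100 residues, 1.28 from 100 to under 200 and 1.19 from 200 to under 400. Why length moves with the fold changes was not tested.

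**Figure D4:**
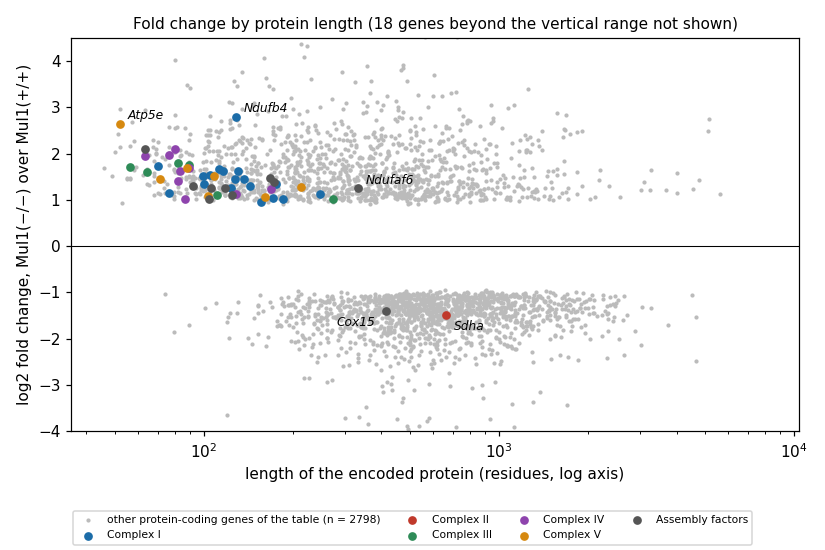
Log2 fold change (vertical axis) against the length of the encoded protein in residues (horizontal log axis) for the 51 members in colour and 2798 other protein-coding genes in grey, with 18 of the latter outside the vertical range. The members sit at the short end, 49 of them above 0, and Sdha (664 residues) and Cox15 (413 residues) lie with the longer genes below 0.

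Some members have near-identical copies among the transcripts of other annotated genes. Whether these lie elsewhere in the genome or overlap the member was not checked. With at least 95% identity over at least 80% of the coding sequence, 15 members had another annotated transcript like them, up to 8 for Atp5l. All 15 were higher with a median log2 fold change of 1.45, and 34 of the 36 without a copy were higher with a median of 1.37. In 20 members exons overlapped another gene, 5 on the same strand and 17 on the other strand, so single values of these members are uncertain.

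Other lists of mitochondrial genes were examined for comparison. Of 40 assembly factors with other names, 12 were in the table, 10 higher and 2 lower, and 2 passed the threshold: Pet100 (2.57) and Coa6 (2.03), both factors of Complex IV. Uqcc2 (2.35) and Uqcc3 (1.49), factors of Complex III, were higher without passing, and Taco1 (−1.46), a translation activator of the mitochondrial Cox1, and Coa5 (−1.03) were lower without passing. Of 13 genes of coenzyme Q synthesis 4 were in the table, 3 higher and 1, Coq8a (−1.43), lower, with 0 past the threshold. Ogdh (−1.54), a subunit of the oxoglutarate dehydrogenase of the citric acid cycle, was the only one of 19 genes of that cycle and pyruvate dehydrogenase in the table. Of 9 genes of other electron entry points 2 were present, Etfb at 1.60 and Etfdh at −1.26, which encode consecutive carriers of electrons from fatty acid oxidation. Among 18 regulators of mitochondrial biogenesis 3 were present, Ssbp1 (1.27) and Mterf1a (1.50) higher without passing, and the fatty acid oxidation regulator Ppara, which fell by 1.71 on the log2 scale (limma adjusted p = 0.00977). Of 26 mitophagy genes 3 were present and lower, namely Mfn2, Rnf185 (−1.18) and Mul1 itself, the gene inactivated in the Mul1(−/−) mice. Only Mfn2, a mitochondrial fusion gene, passed (−1.75, limma adjusted p = 0.00785).

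Mul1 was at 3172, 3232 and 3423 in Mul1(+/+) and 1037, 965 and 1753 in Mul1(−/−), a log2 fold change of −1.44 (limma adjusted p = 0.0126), and the groups did not overlap. The labels call the cells hepatocytes, although tissue was used. Of 15 hepatocyte markers 3 were in the table, all lower, with summed values from 181863 to 290795 in Mul1(+/+) and from 105171 to 106048 in Mul1(−/−). Of 9 biliary markers 5 were present, all higher, with sums from 1316 to 1930 and from 4949 to 5234. Spp1 held most of these sums, at 3336, 4304 and 4613 in Mul1(−/−) replicates 1 to 3. The other biliary markers present were highest in Mul1(−/−) replicate 1, such as Krt19 at 1151, 176 and 147. No marker in the table was at 0. Also in the table were 2 of 10 stellate, 3 of 12 lymphocyte and 1 of 11 macrophage markers, all higher. The groups of the macrophage marker, Lyz2, overlapped. The 2 of 9 endothelial and 1 of 7 erythroid markers in the table were lower, and 0 of 7 adipocyte markers were in it. Markers outside the table have no values here. The part of these markers in the members' values was not tested. Reads on the table's genes numbered 11932163 to 15385822 per library, and 0 members were at 0 in any library.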

How the data were processed

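Liver mRNA of 3 Mul1(+/+) and 3 Mul1(−/−) mice on HFD was sequenced by a service provider. The authors deposited 1 table of 3542 genes with normalised read counts for each library, counts divided by 1 factor per library. Further deposited columns, of log2 fold changes and of p-values before and after adjustment, hold the authors' own DESeq2 comparison, which selected the genes, and were not used for results. The aligner, counter, genome build and annotation are not given in the sources used here. All values under 10000 (100%, tolerance 0.1 read) came out as whole reads, 1 read being worth 0.817 to 1.46 by library.

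log2(value + 1) was fitted with limma 3.58.1 (R 4.3.3), genotype only and no filter, with Benjamini-Hochberg adjustment over the table. limma was tested on simulated data. Other steps used Python 3.11.15 (pandas 2.3.3, numpy 2.4.6, scipy 1.17.1; figures with matplotlib 3.10.9). Gene positions and lengths are from GENCODE M21 (GRCm38), matched by identifier for 3529 genes. Values per library are given for members past the threshold, lower members, the largest and smallest fold change of each complex, core or F1 subunits, members that the study names, and Ndufa1 and Cox7a2, chosen after values were seen. The members and lists were chosen with earlier results of these data known. Alternatives were another p-value limit, limma-trend, other pseudocounts, a filter on the mean, rescaled libraries, the replicate block and each library left out. No count model was run. The p-values measure only the spread between these mice.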

Additional observations from a re-analysis of the deposited data

How the results depend on the processing

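All 49 higher and 2 lower members kept their direction under every alternative, but the number past the threshold did not hold. The selection of the table on the same libraries favours kept directions in any of its genes. Against 11 higher, 0 lower and 854 genes of the table, an adjusted p-value limit of 0.05 gave 48, 2 and 3380, limma-trend 33, 2 and 1869, and a pseudocount of 8 gave 25, 1 and 1433. A minimum mean of 50 gave 25 and 1 members and 1249 of 2837 genes tested, and a pseudocount of 0.5 gave 5, 0 and 639. Rescaling by the table's total gave 4, 1 and 1343, with 27 members not overlapping. With mitochondrial genome genes left out of the total it gave 14, 0 and 880, with all 51 not overlapping. Rescaling by the median ratio gave 2, 2 and 1267. That scaling moved the median log2 fold change to 0.73 for all members, 0.74 for Complex I, 0.99 for Complex III and 0.97 for Complex IV. It moved the median of Complex V to 0.79 and of the assembly factors to 0.60. The value of Sdha, the only Complex II subunit in the table, moved to −2.14. Each rescaling used only genes selected as differing between the genotypes, so its factors can take up part of that difference. With 1 library left out, members past the threshold ranged from 0 to 35 higher and from 0 to 2 lower, and genes of the table from 10 to 2673, fewer samples being one difference of these fits. With the replicate number as a block, 0 members and 0 genes of the table passed by limma, with all 51 members at an unadjusted p under 0.05. The table's share at that unadjusted p was 96.4% without the block and is not given here with it. Same-numbered libraries correlated at 0.0218, 0.352 and 0.0541 in their deviations, and only those numbered 2 correlated best with each other, so the numbers are not shown to pair mice. Of 294 values of single named genes under the alternatives, 192 stayed on their side of the threshold, 84 lost and 18 gained it, and 0 reversed. Causes were not tested. The edgeR and DESeq2 alternatives on recovered reads were not run, because the separators in the deposited columns kept them from being recorded as counts. With 3 mice per group, a table selected on the same libraries and no library totals, neither the number of changed members nor their common scale is well fixed.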
